A study of Mus musculus with 16 samples.

Results

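The regions described here are stretches of open chromatin in mouse pancreatic islets that had a peak in both WSB samples and in none of the other 14 samples of the series. Overlapping or touching peaks of the 16 sample lists were merged on chromosomes 1 to 19, which gave 347712 regions. Of these, 3524 (1.01%) met the rule and are called WSB-only regions. They were chosen by presence or absence of a deposited peak, so that their signal in WSB and their lack of a peak elsewhere are given as a description, with no test.

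The assay was ATAC-seq, in which a transposase cuts accessible DNA and leaves sequencing adapters there. Each of the 16 samples was made from 50 islets, with 1 female and 1 male sample for each of 8 inbred strains, labelled 129S1_SvImJ (129), A_J (AJ), C57BL/6J (B6), CAST_EiJ (CAST), NOD_ShiLtJ (NOD), NZO_HlLtJ (NZO), PWK_PhJ (PWK) and WSB_EiJ (WSB). The labels give no age, treatment or transgene. WSB is a wild-derived strain, as are CAST and PWK, and the others are classical laboratory strains. Since a strain is represented by 1 female and 1 male sample, and the labels do not say how many mice each came from, strain cannot be told apart from what those 2 libraries share for other reasons, and sex is the only known difference between them.

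Accessible chromatin marks promoters, where transcription starts, and distal elements such as enhancers, which transcription factors hold open and which can act on genes far away. In islets, beta cells (insulin), alpha cells (glucagon) and delta cells (somatostatin) share endocrine factors of the NEUROD, NKX2, PAX6, RFX and FOXA families, while AP-1, a dimer of FOS and JUN proteins, is known in many tissues for opening enhancers after stimulation or stress.

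The strongest WSB-only regions differed in the short sequences they held. The 4 with the highest signal and the strongest near a protein-coding start are shown as the 200 bases around the WSB female summit, from the plus strand of GRCm38, which is the B6 genome, and capitals mark matches to the 20 short factor sequences searched below. WSB's own bases were not analysed here, so a base that differs in WSB does not show.
Map6 intron region, chr7:99299103-99299302: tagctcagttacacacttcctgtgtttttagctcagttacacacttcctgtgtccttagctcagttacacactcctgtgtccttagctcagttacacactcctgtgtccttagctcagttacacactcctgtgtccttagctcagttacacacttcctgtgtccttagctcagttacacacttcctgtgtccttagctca
Xkr4 region, chr1:3294252-3294451: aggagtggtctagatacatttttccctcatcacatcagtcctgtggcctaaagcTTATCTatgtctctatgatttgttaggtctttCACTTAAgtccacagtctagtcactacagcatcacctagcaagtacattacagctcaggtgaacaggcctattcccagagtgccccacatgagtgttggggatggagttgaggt
Slitrk5 distal region, chr14:111892284-111892483: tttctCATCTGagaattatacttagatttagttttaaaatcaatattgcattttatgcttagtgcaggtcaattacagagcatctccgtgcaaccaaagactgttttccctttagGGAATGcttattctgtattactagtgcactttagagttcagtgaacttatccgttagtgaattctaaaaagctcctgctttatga
T distal region, chr17:8471727-8471926: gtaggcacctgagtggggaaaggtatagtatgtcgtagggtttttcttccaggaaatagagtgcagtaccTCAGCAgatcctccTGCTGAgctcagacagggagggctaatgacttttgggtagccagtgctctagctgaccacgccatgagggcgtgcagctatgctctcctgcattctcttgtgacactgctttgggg
Arhgef3 promoter region, chr14:27360340-27360539: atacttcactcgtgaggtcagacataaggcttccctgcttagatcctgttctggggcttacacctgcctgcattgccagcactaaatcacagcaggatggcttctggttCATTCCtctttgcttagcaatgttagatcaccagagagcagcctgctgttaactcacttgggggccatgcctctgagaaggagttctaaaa
The Map6 stretch was a tandem array of a short unit and was marked as repeat along its whole length (100%) in the reference, and it held 0 of the sequences searched. The Xkr4 stretch held a GATA and an NKX2-2 match, the Slitrk5 stretch a NEUROD-type E-box and a TEAD match, the T stretch 2 MAF-type matches and the Arhgef3 stretch a TEAD match. No AP-1 sequence was in any of these 5.

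A large group of WSB-only regions carried the AP-1 sequence TGAGTCA or its reverse complement TGACTCA. The 3 strongest such regions and the strongest within 3 kb of a protein-coding start are shown as their central 200 bases with the match in capitals, and they were chosen after the shares below were seen.
Rgs5 distal region, chr1:169601985-169602184: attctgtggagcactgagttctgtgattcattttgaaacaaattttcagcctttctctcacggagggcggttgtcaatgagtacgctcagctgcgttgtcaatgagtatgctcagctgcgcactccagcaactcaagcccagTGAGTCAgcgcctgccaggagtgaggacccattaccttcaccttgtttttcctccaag
Zfp808 distal region, chr13:61955217-61955416: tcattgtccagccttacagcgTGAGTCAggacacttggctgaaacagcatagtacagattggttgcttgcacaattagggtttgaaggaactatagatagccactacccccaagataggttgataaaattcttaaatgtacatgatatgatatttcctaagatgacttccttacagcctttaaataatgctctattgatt
Dkk3 intron region, chr7:112138244-112138443: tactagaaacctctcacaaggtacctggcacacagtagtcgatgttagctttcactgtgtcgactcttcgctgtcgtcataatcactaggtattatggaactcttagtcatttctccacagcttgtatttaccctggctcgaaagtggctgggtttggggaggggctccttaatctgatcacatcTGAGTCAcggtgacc
Dnm2 promoter region, chr9:21457367-21457566: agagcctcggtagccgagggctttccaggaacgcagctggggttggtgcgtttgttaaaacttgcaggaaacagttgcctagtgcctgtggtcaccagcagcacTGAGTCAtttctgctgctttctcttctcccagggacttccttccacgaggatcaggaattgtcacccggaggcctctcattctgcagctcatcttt
Each of these 4 stretches held 1 match, and each was TGAGTCA on the plus strand.

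WSB-only regions were few among what was open in WSB. Both WSB samples had a peak in 111905 regions, of which 40940 (36.6%) were called in all 16 samples and 3524 (3.15%) in WSB alone. The next step, regions called in both WSB samples and in exactly 1 other sample, held 3709 regions. In those, the other sample was most often the NZO male (676 regions), the PWK female (525), the CAST female (455), the CAST male (376) or the B6 male (375), and least often the 129 male or the AJ male (59 each). List lengths differed too, the shortest being that of the AJ male (77887 peaks on chromosomes 1 to 19), that of the WSB female the longest (167051) and that of the WSB male at 133259, and their part in these counts was not tested. Of the other strains, CAST had 6249 strain-only regions, PWK 3385, NZO 1121, B6 393, NOD 223, AJ 217 and 129 182.

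**Figure D1:**
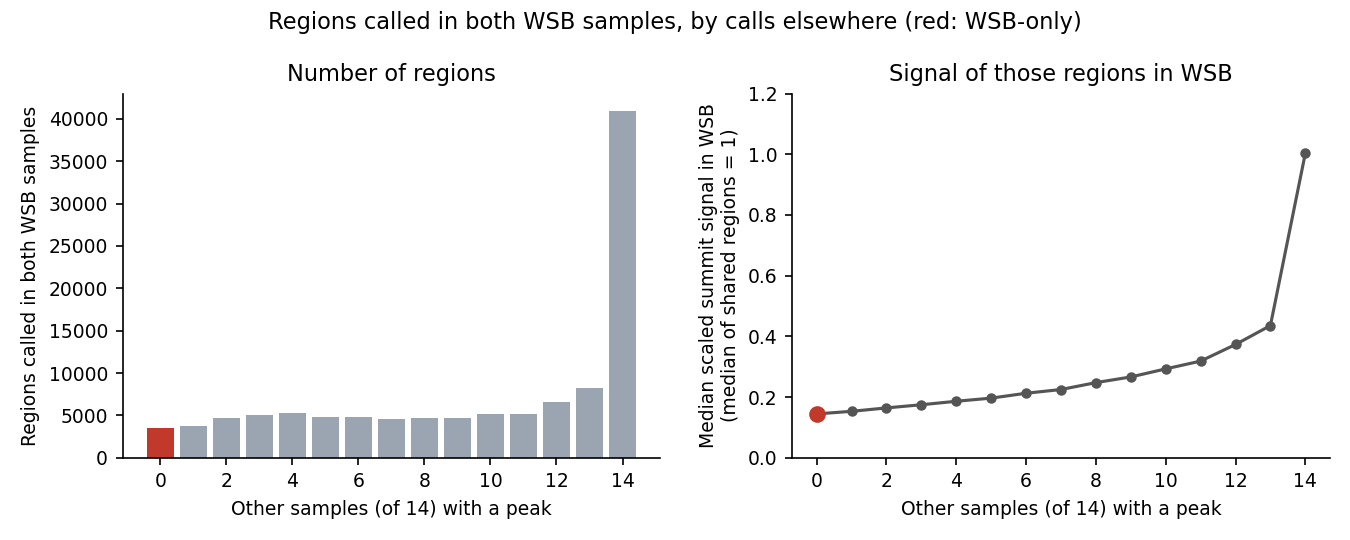
Left, number of regions called in both WSB samples (y axis) against how many of the other 14 samples also had a peak (x axis). Right, the median summit signal of the same regions in WSB, scaled to the median of regions called in all 16 samples. WSB-only regions (red) numbered 3524 and had the lowest median signal, 0.145, and the median was higher at each further sample, up to 1.00 at 14.

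Most WSB-only regions were low and narrow peaks. The deposited signal at the peak summit was divided by the median summit signal of the sample over regions called in all 16 samples (106 in the WSB female, 88 in the WSB male), so that a value of 1 is a typical shared region. On this scaled signal, the median WSB-only region reached 0.132 in the female and 0.159 in the male, and 0.145 as the mean of both (interquartile range 0.117 to 0.187). Unscaled, the median summit was 14 in both samples, with a range of 1 to 162 in the female and 2 to 186 in the male. The deposited −log10 p had a median of 1.48 in the female and 0.927 in the male, and in 23.4% of WSB-only regions it was below 1 in both samples. At the other end, 52 regions (1.48%) had a mean scaled signal of at least 0.5, and 6 reached 1.

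The regions just inside and just outside the rule looked much alike. Regions with 1 other sample had a median scaled signal of 0.142 in the WSB female and 0.159 in the WSB male, so the WSB-only regions lay slightly lower in the female and at the same level in the male. Regions called in the WSB female alone (19732) had a median of 0.0943 there, and those called in the WSB male alone (6497) a median of 0.114. The median width was 200 bases, 32.0% of WSB-only regions were exactly 200 bases wide, and 62 were 1000 bases or more. Regions called in all 16 samples had a median width of 1144.5 bases.

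The WSB female and male agreed less on the order of WSB-only regions than on that of regions called in all samples. Across the 3524 WSB-only regions, Spearman's rho between the scaled signal of the female and the male was 0.504, against 0.968 across the 40940 regions called in all 16 samples. These values are descriptions across regions of the same 2 libraries, and the part of the low signal of WSB-only regions in the lower value was not tested. The log2 ratio of female to male had a median of -0.17 and an SD of 0.62 over WSB-only regions, against -0.01 and 0.29 over shared regions. The female was higher in 37.9% of WSB-only regions.

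**Figure D2:**
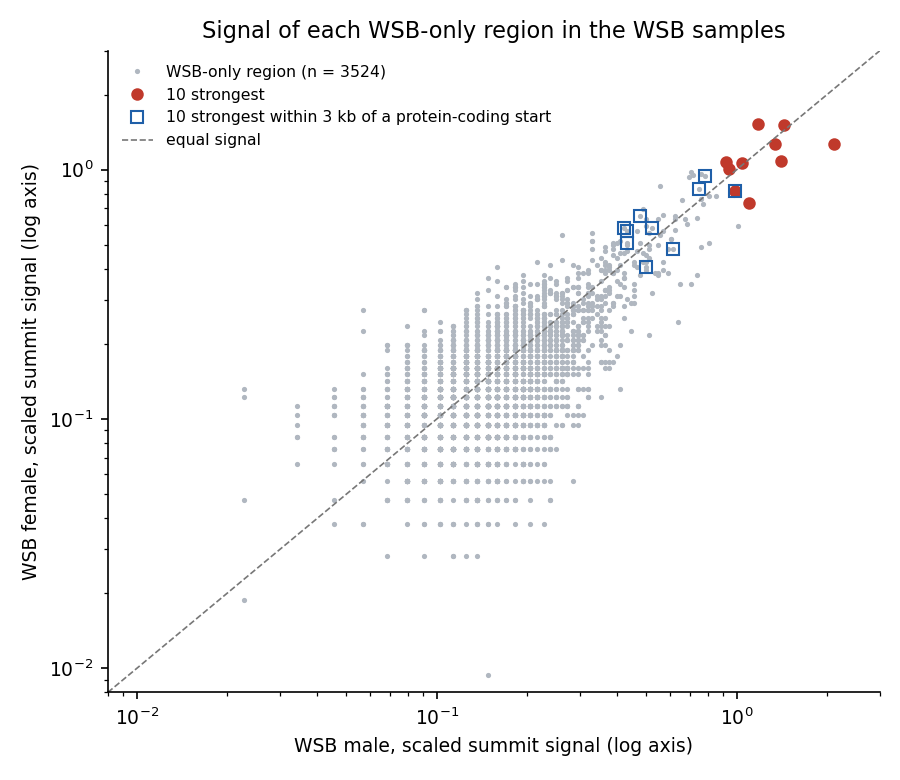
Scaled summit signal of each of the 3524 WSB-only regions in the WSB male (x axis) and the WSB female (y axis), both on log axes, where 1 is the median of regions called in all 16 samples. The interquartile range was 0.104 to 0.189 in the female and 0.13 to 0.205 in the male, the 10 strongest (red) lie along the line of equal signal from about 0.74 to 2.11, and blue squares mark the 10 strongest near a protein-coding start.

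The strain lists, in which the authors scored how well peak ranks repeated between female and male by the irreproducible discovery rate (IDR), held most of these regions but at low reproducibility. A peak of the WSB strain list overlapped 3336 WSB-only regions (94.7%), and a WSB peak with an IDR of 0.05 or less overlapped 346 (9.82%). For all regions called in both WSB samples, that share was 63.0%. The 346 regions had a median scaled signal of 0.303, against 0.139 in the rest, and 98 of the 100 strongest WSB-only regions were among them.

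The highest WSB-only regions were as high as typical shared regions, and 8 of the 10 lay away from a transcript start. The highest was on chromosome 7 (99298280-99299532, 1253 bases) in an intron, 29148 bases from the nearest start of Map6, which encodes a protein that stabilises microtubules. Its summit signal was 135 in the female and 186 in the male, or 1.27 and 2.11 on the scaled signal. The region on chromosome 1 (3294110-3294776), an intron with Xkr4 as the nearest protein-coding gene, had 160 and 127, or 1.51 and 1.44. The intergenic region on chromosome 14 (111892271-111892592), 216422 bases from Slitrk5, a neuronal adhesion gene, had 162 and 104, or 1.53 and 1.18. All 3 were above the median shared region in both samples.

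The region nearest T, the gene of the mesoderm factor brachyury, on chromosome 17 (8471587-8472010), lay 36176 bases from its start and had 135 and 118, or 1.27 and 1.34 on the scaled signal. On chromosome 1 (169601847-169602322) an intergenic region 53179 bases from Rgs5, a regulator of G protein signalling, had 115 and 124, or 1.08 and 1.41. It was the single region of the 10 with an AP-1 sequence in its central 200 bases. A region 67095 bases from Snd1 on chromosome 6 (28947138-28947704) had 1.07 and 1.05, and one within 3 kb of the lincRNA D5Ertd615e on chromosome 5 (45426603-45427578), 16018 bases from Qdpr, which recycles the cofactor of aromatic amino acid hydroxylases, had 1.08 and 0.920.

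Among the 10 strongest, 2 had an islet gene as the nearest protein-coding gene, though at a distance. The intergenic region on chromosome 14 (13009368-13009778) was 186289 bases from Cadps, which primes dense-core vesicles for release, and had a scaled signal of 1.01 in the female and 0.943 in the male. The region on chromosome 10 (51802760-51803037) was 108989 bases from Rfx6, a transcription factor needed for endocrine cell formation, and had 0.736 and 1.10. The nearest gene is a label of position, and no link to its expression was measured. A peak of another strain lay between 1295 and 10086 bases away from these 10 regions.

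WSB-only regions near a protein-coding start were a smaller group. Of the 100 strongest WSB-only regions, 23 were within 3 kb of any transcript start, against 18.05% of all 3524. Within 3 kb of a protein-coding start there were 362 WSB-only regions near 347 genes. The strongest was 271 bases from a start of Arhgef3, a guanine nucleotide exchange factor, on chromosome 14 (27360323-27361118), with 87 in the female and 87 in the male, or 0.821 and 0.989. A region 1774 bases from a start of Yipf1, a Golgi membrane protein, had 89 and 66, or 0.840 and 0.750, so that both were above 0.7 in the female and in the male.

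Another 6 of the 10 strongest regions near a protein-coding start lay between 0.406 and 0.651 in the female and between 0.420 and 0.614 in the male. They were near Bcl2l10, a BCL2 family member (0.651 and 0.477), Tnfsf13b, the B cell survival factor BAFF (0.585 and 0.523), Lrpprc, which stabilises mitochondrial transcripts (0.481 and 0.614), Dnm2, a membrane-fission GTPase (0.585 and 0.420), Stt3a, the catalytic subunit of a glycosylation complex (0.509 and 0.432), and Stxbp5, a regulator of SNARE assembly (0.406 and 0.50). The region at Stt3a overlapped a start, at a distance of 0 bases. The region at Dnm2, 192 bases from a start, carried the AP-1 sequence shown above.

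By position, WSB-only regions were mostly intronic or intergenic. Introns held 1444 (41.0%, 95% Wilson interval 39.4 to 42.6), intergenic sequence 1335 (37.9%, 36.3 to 39.5), promoters, taken as within 3 kb of any transcript start, 636 (18.05%, 16.8 to 19.4), and exons 109 (3.09%, 2.57 to 3.72). Regions called in all 16 samples were 41.0% promoter. Of the 636, 338 had a protein-coding gene as the nearest gene and 73 a processed pseudogene, and 85 of all 3524 were within 100 bases of a start. The intervals cover counting error over regions, and neighbouring regions are not independent.

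The promoter share of WSB was within the range of the other strain-only regions. It was 18.05% in WSB against a mean of 21.1% over the other 7 strains (17.6% to 24.4%), a difference of -3.00 percentage points. An exact two-sided permutation test over the 8 placements of a single strain gave p = 0.5 (adjusted p = 0.6 over the 6 measures tested this way), where the smallest p it allows is 0.13. CAST-only regions were 21.9% promoter and PWK-only regions 18.4%. The intron share of 41.0% was above that of each other strain (20.3% to 36.8%), with an exact permutation p of 0.25 and an adjusted p of 0.5.

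In sequence, WSB-only regions held few repeats. Bases marked as repeats in the reference made up 17.0% of a region on average, against 42.4% in PWK-only, 28.8% in CAST-only and 13.7% in regions called in all 16 samples. NZO-only regions were as low, at 16.2%, and the remaining strains lay between 28.7% and 35.2%, so that WSB ranked second lowest of 8 (exact permutation p = 0.375, adjusted p = 0.5625). A repeat filled more than 50% of 352 WSB-only regions (9.99%), and 1278 (36.3%) had no repeat base. Median GC content was 44.2%, the lowest of the 8 strain-only sets (44.3% to 47.0% in the others, exact permutation p = 0.25, adjusted p = 0.5), and 47.0% in regions called in all 16 samples. Regions rich in CpG, with over 50% GC and an observed-to-expected CpG ratio over 0.6, numbered 35 (0.993%), against 13.3% of the regions called in all 16 samples.

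The AP-1 sequence stood out among the 20 short sequences searched on both strands in the central 200 bases of each region. The search form TGANTCA was in 982 WSB-only regions (27.9%, 95% Wilson interval 26.4 to 29.4), against 8.36% of regions called in all 16 samples, 9.30% of CAST-only, 10.0% of PWK-only and 13.5% of all 347712 merged regions. The forms TGAGTCA and TGACTCA, which AP-1 binds, were in 21.8% of WSB-only and 5.71% of shared regions. The other 2 forms, TGAATCA and TGATTCA, were in 7.55% and 2.84%. A match is a description of the reference sequence and does not show that a factor was bound. The 200 bases searched lay around the middle of the merged region, and median widths were 200 bases (WSB-only) and 1144.5 bases (shared). In a wide shared region the middle can lie off the summit, and the part of this in the motif shares was not tested. Counts centred on the summit are given below for AP-1.

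Sequences of SP/KLF factors, which bind many promoters, and of CTCF, which binds insulators and the anchors of chromatin loops, were rarer in WSB-only regions than in regions called in all 16 samples, with GGGCGG (SP/KLF) in 2.13% against 13.4% and the CTCF core AGGNGGCNC in 1.87% against 5.66%. CAST-only regions had 5.30% and 3.58%, and PWK-only regions 2.98% and 1.98%. Sequences of islet and liver factors went both ways. More frequent were GTTAAT (HNF1) in 11.0% against 7.64%, TGTTTAC (FOXA) in 5.87% against 4.61%, CATCTG (NEUROD-type E-box) in 21.2% against 16.2% and TGCTGA (MAF) in 22.0% against 16.5%. Less frequent were GTTGCCA (RFX) in 2.84% against 3.51% and CAAAGTC (HNF4) in 2.70% against 3.15%. The E-box share was 21.1% in CAST-only regions as well. TGCTGA can overlap the end of an AP-1 match, and it was in 23.8% of WSB-only regions with TGAGTCA or TGACTCA and in 21.5% of those without. The central 200 bases had a median GC content of 44.0% in WSB-only and 48.0% in shared regions, and the part of GC content in these shares was not tested.

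**Figure D3:**
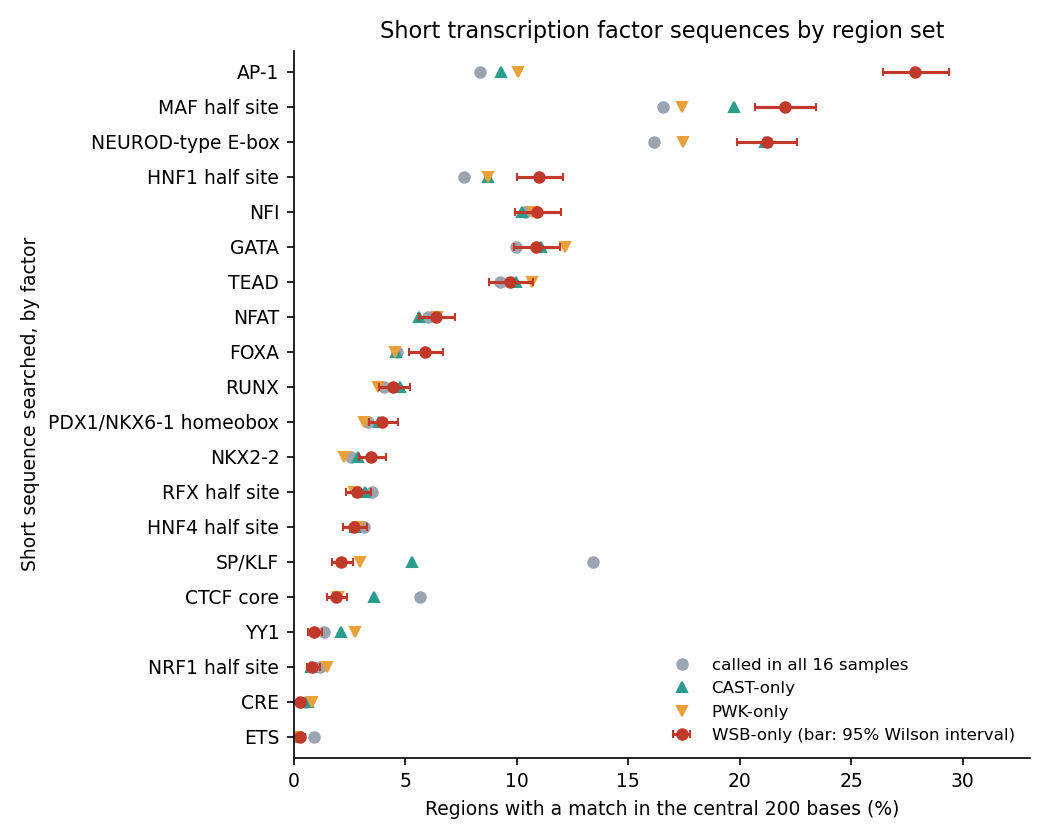
Share of regions (x axis, percent) whose central 200 bases hold each of 20 short sequences (y axis, by factor), for WSB-only regions (red, with 95% Wilson intervals), CAST-only, PWK-only and regions called in all 16 samples. AP-1 is the sequence with the widest gap, at 27.9% in WSB-only regions against 8.36% to 10.0% in the other sets, and SP/KLF is the one most reduced, at 2.13% against 13.4% in shared regions.

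The AP-1 matches sat under the summits. Within 50 bases on either side of the WSB female summit there were 84.3 and 97.9 matches per 1000 WSB-only regions, and 9.65 and 10.2 per 1000 in the 50-base steps farthest out, 200 to 250 bases away. In regions called in all 16 samples, the same positions had 38.0 and 43.5 near the summit and 6.35 and 6.06 far from it. Matches thus rose toward the summit in both sets. WSB-only regions had more at the summit and far from it, and the gap in matches per 1000 regions was smaller far out.

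The AP-1 share was close across positions and varied with signal. It was 20.0% of promoter, 22.2% of intronic and 22.0% of intergenic WSB-only regions, against 3.61%, 7.58% and 7.08% of the shared regions of each class. With WSB-only regions cut into 3 groups of near-equal size by scaled signal, it was 13.8% in the lowest, 23.9% in the middle and 27.9% in the highest. The 100 strongest regions, all at a scaled signal of 0.397 or more, had it in 15 cases, below the share in all WSB-only regions, and this difference was not tested. The 768 regions with the sequence had a median scaled signal of 0.151 in the female and 0.170 in the male, and those without 0.132 and 0.148.

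A high AP-1 share was not limited to WSB. Among strain-only regions it was 19.4% in NZO, 6.87% in B6, 6.13% in CAST, 5.88% in PWK, 3.30% in 129, 2.3% in AJ and 1.35% in NOD, and WSB was the highest of the 8. An exact two-sided permutation test over the 8 strains gave p = 0.13, which is the smallest it allows, and an adjusted p of 0.5. This measure was picked after the high share in WSB-only regions was seen, so no conclusion is drawn from the test. In regions called in both WSB samples, the share was 24.6% with 1 other sample, 21.5% with 2 and 22.1% with 3, and it was lower at each further number, at 13.6% with 8 and 5.71% with 14.

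Which other sample shared a region with WSB went along with the AP-1 share. In regions called in both WSB samples and 1 other, it was 39.5% where the other was the B6 male, 36.4% for the PWK female and 35.2% for the NZO male. For the other sample of the same strains it was 8.14% (B6 female), 15.5% (PWK male) and 27.1% (NZO female). It was 5.43% for the 129 female and 5.08% for the 129 male. In AJ it was 26.0% for the female (173 regions) and 3.39% for the male (59 regions). A male was higher in B6 and NZO and a female in PWK and AJ, and the samples of 129, CAST and NOD were closer together.

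The same libraries stood high in regions that the rule did not select. Over the 2339 regions with TGAGTCA or TGACTCA among the 40940 called in all 16 samples, the median log2 signal, centred on each sample's median, minus that of the regions without was 0.31 in the WSB male and 0.28 in the WSB female, the highest of the 16. It was 0.25 in the PWK female, 0.21 in the B6 male and 0.15 in the NZO male, and -0.44 in the 129 female and -0.36 in the 129 male. In B6 the other library was at -0.20 and in PWK at -0.13, and in AJ the female was at 0.11 and the male at -0.31. The libraries of a strain could thus differ by about as much as WSB did from CAST (-0.08 and -0.04).

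**Figure D4:**
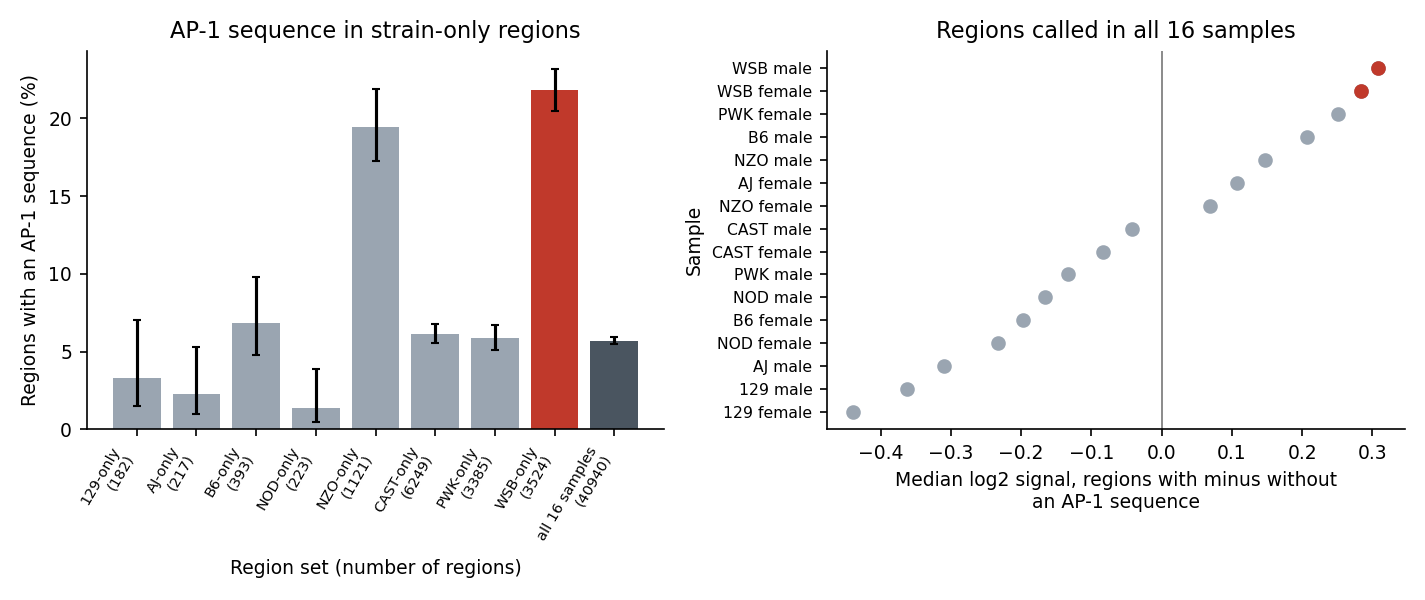
Left, share of regions with TGAGTCA or TGACTCA in the central 200 bases (y axis, percent, with 95% Wilson intervals) for the strain-only regions of each strain and for regions called in all 16 samples. Right, for each sample (y axis), median log2 signal of shared regions with the sequence minus that of shared regions without it (x axis). WSB-only (21.8%) and NZO-only (19.4%) regions stand above the others, and the WSB male and female (red) are the highest samples, followed by the PWK female and the B6 male.

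Signal at the promoters of AP-1 and related genes was low in WSB more often than high, with Bach1 and Fosl1 the other way. Scaled signal within 1 kb of a start was 6.40 in the WSB female and 6.43 in the WSB male at Jun, below all 14 other samples (7.08 to 18.8). At Junb it was 1.61 and 1.82 (1.60 to 5.76 in the others, 13 of 14 above both), at Fos 2.85 and 2.53 (1.87 to 5.59, 10 of 14 above both) and at Fosl2 2.52 and 2.51 (1.09 to 4.16). Jund had 3.11 and 3.02 (2.59 to 7.14, 11 of 14 above both and 3 below both). Nfe2l2, whose protein binds a related sequence, had 1.78 and 2.03, again below all 14 others (2.88 to 4.81). Bach2 had 3.65 and 3.82 (3.63 to 6.38, 11 of 14 above both and 1 below both). Mafk had 0.613 and 0.693 (0.538 to 2.13, 10 of 14 above both and 4 below both). Bach1, whose protein also binds a related sequence, had 7.62 and 9.14 (5.44 to 9.88, with 9 of 14 below both and 1 above both), and Fosl1 had 0.679 and 0.670 (0 to 1.34, with 10 of 14 below both). No WSB-only region lay within 1 kb of a start of these genes. Accessibility at a promoter is not expression, and these genes were chosen after the motif shares were seen.

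Markers of the cell types an islet sample can hold are given beside this. The defining beta cell promoters were open in WSB (8 of 8 genes with a peak within 1 kb of a start, summed scaled signal 16.9 and 17.3, against 13.2 to 18.4 in the other 14 samples). Alpha cell genes had 4 of 4 called and sums of 6.65 and 5.93 (6.64 to 8.50), delta genes 1 of 2 with 0.462 and 0.489 (0.0938 to 1.26), and the PP gene was at 0 in all 16 samples. Pan-endocrine genes had 16.5 and 16.3 (14.3 to 23.5), with 1 of the 14 others lower.

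Non-endocrine markers were low but not absent. Stromal genes (2 of 4 called) summed to 1.70 and 1.68, above 13 of the 14 other samples (0.536 to 2.10). Most of this was Col1a2 (1.53 in the WSB female and 1.47 in the WSB male), and Pdgfrb and Lum were at 0 in WSB. The Col1a1 part (0.170 and 0.216, against 0 to 0.509 in the others) came from a WSB-only region. Stromal sums were 2.10 in the B6 male, 1.68 in the PWK female and 1.63 in the AJ female, and 0.945 in the NZO male. Acinar genes (2 of 10) were at 0.943 and 0.795 (0 to 1.84), above 13 and 11 of the others. Duct genes were at 1.19 and 1.18 (0.446 to 3.27), endothelial genes at 0.481 and 0.455 (0 to 0.764), leukocyte genes at 0.642 and 0.659 (0.366 to 3.78) and liver genes, which islets should keep closed, at 0.274 and 0.227 (0 to 0.873). The part of cell composition in the WSB-only regions was not tested, and in bulk islets more cells of a type and more open chromatin per cell cannot be told apart.

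Of the genes that define endocrine cells, 1 held a WSB-only region. A gene was counted where a region overlapped it or lay within 3 kb of one of its starts. Of 21 beta cell identity and insulin genes, 1 held one, and that was Slc2a2, the glucose transporter, with an intronic region on chromosome 3 (28714800-28715199) at 12 in the female and 13 in the male (0.113 and 0.148 on the scaled signal). This is 4.76% of the list and 2.08 regions per Mb of gene, against 6.63% and 1.79 per Mb over all protein-coding genes. None of the 11 alpha, delta and PP cell genes, 14 acinar genes or 13 leukocyte genes on chromosomes 1 to 19 held one. Of 17 duct, endothelial and stromal genes it was Col1a1, a fibroblast collagen, with a promoter region on chromosome 11 (94945932-94946062) at 18 and 19 (0.170 and 0.216) that carried the AP-1 sequence. Over all 20779 protein-coding genes, 1377 held a WSB-only region, and the lists differ widely in gene length.

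Genes of secretion and excitability, which are long, held more per Mb of gene than all protein-coding genes did. Of 25 granule and exocytosis genes, 8 held 14 WSB-only regions, which is 3.96 per Mb of gene against 1.79 over all protein-coding genes. The same genes held 156 shared regions (44.2 per Mb), and chromosomes 1 to 19 held 3524 WSB-only and 40940 shared regions. Relative to shared regions, the 14 of this list were thus close to the proportion over chromosomes 1 to 19. Shared regions per Mb over all protein-coding genes were not computed, and the part of generally open chromatin in these densities was not tested. The strongest lay in an intron of Pcsk2, a prohormone convertase, on chromosome 2 (143732561-143732717) with 28 and 23 (0.264 and 0.261), followed by 2 in Ptprn2, a dense-core granule protein, with 22 and 18 and with 22 and 14. Cadps held 3 and Rims2 held 2. Of the 14 regions, 13 were intronic and 1 had the AP-1 sequence.

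Of 21 ion channel genes, 10 held 17 regions (3.27 per Mb), beside 140 shared regions (26.9 per Mb). The strongest of any list lay in an intron of Cacna1c, an L-type calcium channel subunit, on chromosome 6 (118693941-118694319) with 49 in the female and 43 in the male, or 0.462 and 0.489. Cacna1d, the related channel, held 3, the strongest with 29 and 29 (0.274 and 0.330), and Kcnma1, a calcium-activated potassium channel, held 3, the strongest with 24 and 23 (0.226 and 0.261). The female and male values of each of these lay close together.

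Of 31 genes named for type 2 diabetes loci in human association studies, 9 held 17 regions (2.60 per Mb), of which 5 carried the AP-1 sequence. Cdkal1, a tRNA-modifying enzyme, held 6. The strongest were in introns of Dgkb, a diacylglycerol kinase, with 44 and 30 (0.415 and 0.341), and of Camk1d, a calcium-dependent kinase, with 32 and 38 (0.302 and 0.432), and in Macrod1, 2885 bases from a start of Flrt1, with 34 and 22 (0.321 and 0.250). Neural adhesion and synapse genes, the longest list at 30.6 Mb, held 61 regions in 19 of 22 genes, which is 1.99 per Mb. Cntnap2 held 15, and the highest of the list lay in or beside Dlg2, 2274 bases from a start of Tmem126b (23 and 24), in Lrp1b (26 and 20) and in Cntnap2 (13 and 28).

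WSB-only regions were spread over the genome at 1.47 per Mb, with local concentrations. A region was in 1617 of 2473 windows of 1 Mb (65.4%), and 1401 of these windows held 1 to 3. Chromosome 19 had the highest density, 2.80 per Mb, or 5.18% of the regions called in both WSB samples there, and chromosome 6 followed with 2.36 per Mb and 4.77%. Chromosome 11 was the lowest at 0.910 per Mb (2.50%). On chromosome 19 the 13 windows of 5 Mb held 3 to 25 WSB-only regions each, and whether the excess lay in a few of them was not tested. On chromosome 6, leaving out its 3 densest windows still gave 1.98 per Mb.

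**Figure D5:**
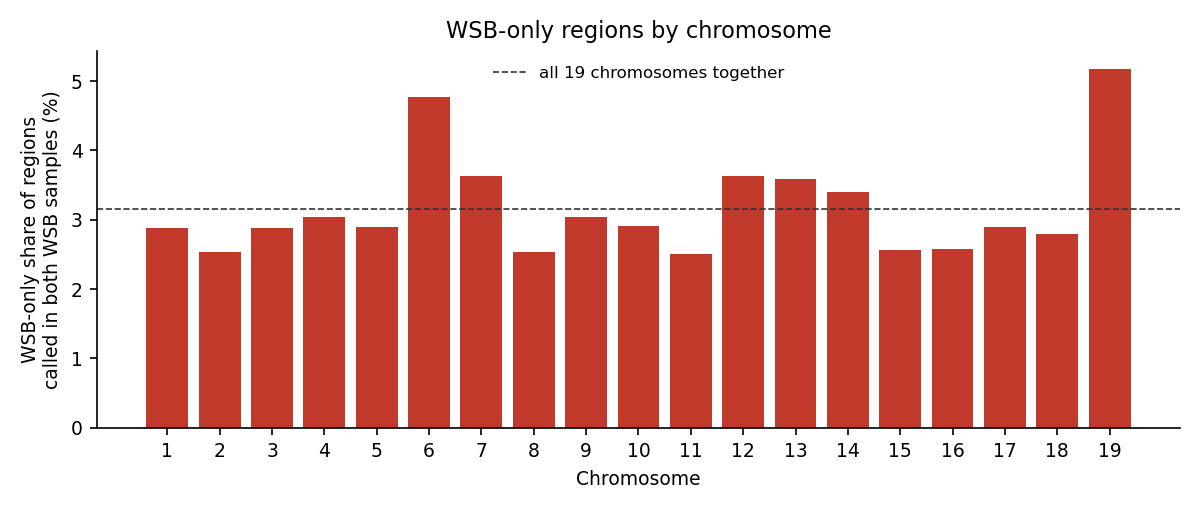
WSB-only regions as a share of the regions called in both WSB samples (y axis, percent, from 0), by chromosome (x axis), with the share over all 19 chromosomes (3.15%) as a dashed line. Chromosomes 19 (5.18%) and 6 (4.77%) are the highest, and chromosome 11 (2.50%) is the lowest.

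The 5 densest windows held 98 regions (2.78%), and 4 of them lay over stretches with many annotated pseudogenes (27 to 55). The densest was chromosome 6, 69000001-70000000, with 29 WSB-only regions between 69105000 and 69882799, of which 28 were nearest an Igkv gene, the variable segments of the immunoglobulin kappa light chain. Of the 57 regions called in both WSB samples there, 29 were WSB-only and 1 was called in all 16 samples, while CAST-only and PWK-only regions numbered 4 each. Their median scaled signal was 0.145 and none was above 0.216. Leukocyte markers in WSB, given above, were within the range of the other samples. That list held no gene specific to B cells, and the part of B cells in this window was not tested.

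The next windows were chromosome 6, 59000001-60000000, with 20 regions nearest Gm18012, Gm5570 or Gm22622 and only 3 pseudogenes among 9 genes, chromosome 12, 18000001-19000000, with 19 among 29 predicted (Gm) genes, chromosome 7, 11000001-12000000, with 17 around Zscan4d, a gene of the early embryo with many copies, and chromosome 6, 130000001-131000000, with 13, where Klra10 of the natural killer cell receptor family lies. Repeats made up 28.8% to 43.8% of these regions on average, and the AP-1 sequence was in 2 of the 98, against 22.4% of the WSB-only regions elsewhere. Among near-identical copies, reads can be placed in the wrong copy and a copy-number difference from B6 can change the signal, and neither was tested here. The widest WSB-only region (2783 bases) was on chromosome 16 (60635400-60638182) over the pseudogene Gm49609, with 21 in the female and 23 in the male, and ended 17 bases from a peak of another strain.

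Distances from WSB-only regions to other peaks are given as a description, since the distance of a random position from such peaks was not computed. The nearest peak of another strain was a median of 2105.5 bases away (interquartile range 800 to 4800), within 1 kb for 1054 regions (29.9%) and over 10 kb for 318 (9.02%). A region called in all 16 samples lay within 10 kb of 1245 WSB-only regions (35.3%), and the median distance to one was 17469 bases. WSB-only regions had another WSB-only region within 10 kb in 398 cases (11.3%), less often than CAST-only (19.3%) and PWK-only (30.6%) regions had one of their own, and this difference in clustering was not tested.

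Shared regions near WSB-only regions are given for description, since they come from the same contrast as the rule. Over the 40940 regions called in all 16 samples, limma on centred log2(summit signal + 1), with strain and sex in the model, called 3.03% higher in WSB than in the mean of the other 7 strains (1242 regions, Benjamini-Hochberg adjusted p under 0.05) and 4.17% lower (1708). Without centring the split was 1415 higher to 213 lower. Of the 1621 shared regions within 10 kb of a WSB-only region, 97 (5.98%) were called higher and 48 (2.96%) lower, with a median log2 difference of 0.06 against -0.07 over all shared regions. Of the 2339 shared regions with TGAGTCA or TGACTCA, 251 (10.7%) were called higher and 52 (2.22%) lower, with a median of 0.29. With the WSB female left out, 43 of the 40940 were called higher, and with the WSB male left out 42, so the calls rest on having both.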

How the data were processed

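Per the labels, read trimming by the authors used cutadapt 2.0, alignment to mm10 used Bowtie2 2.3.4.1 and duplicate removal used Picard 2.9.2. Mitochondrial reads were dropped, and MOSAiCS called peaks sample by sample (FDR 0.05). Whether reads were shifted for the transposase is not given in the sources used here. The deposited sample lists hold a whole-number summit signal, a mean signal and a −log10 p per peak. The signal was not scaled to depth, and the read total of each sample is unknown here. The 8 deposited strain lists give −log10 IDR, used for overlap alone.

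Peaks on chromosomes 1 to 19 were merged across 16 samples with Python 3.11.15 and pandas 2.3.3. The members and all lists were chosen with earlier results of these data known. Summit signal was divided by the sample's median over regions called in all 16 samples. Genes came from GENCODE M21 and sequence from GRCm38.p6, the build of the peaks, of which 0 ended beyond a chromosome. Shared regions were tested with limma 3.58.1 in R 4.3.3 (pseudocount 1, strain and sex, Benjamini-Hochberg), and the fit was tested on simulated data. Strain shares were compared by exact permutation tests with scipy 1.17.1. The regions named were the 10 strongest, the 10 strongest within 3 kb of a protein-coding start, up to 3 per gene list, the 5 densest windows of 1 Mb and the widest. A few regions that this rule picks are not reported here. The labels do not say whether the 2 samples of a strain were pooled or single mice. No paired analysis was possible because the labels carry no replicate numbers, and female and male are a model term instead. Alternatives covered merging, thresholds, equal peak numbers, strain lists, signal scales and left-out samples.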

Additional observations from a re-analysis of the deposited data

Results flagged for a closer look

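Chromosome X lay outside the rule, which covers chromosomes 1 to 19. Of 3570 regions on X called in both WSB samples, 98 (2.75%) had no peak in the other 14 samples, with a median scaled signal of 0.157. The share on chromosomes 1 to 19 was 3.15%.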

How the results depend on the processing

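The number of WSB-only regions (3524) rested on weak peaks. It was 1919 when each list was cut to peaks above its median −log10 p, 169 when only the WSB lists were, 794 with 77887 peaks taken from every sample by summit signal, and 1619 with the 8 strain lists. The rule was applied anew in each setting. Shorter lists of the other strains can admit regions that have a peak there in the full lists, so these sets are not simply parts of the 3524. Of the 3524, 346 overlapped a WSB strain-list peak with an IDR of 0.05 or less. With only the WSB male or only the WSB female required, the number of regions was 10673 or 23622, and over all left-out samples it ran from 3584 to 23622. In that order of the 4 settings, the median scaled signal was 0.345, 0.424, 0.323 and 0.284, and the median width 316, 337, 266 and 215 bases. The median GC content was 45.2%, 46.3%, 45.8% and 46.4%. The share with TGAGTCA or TGACTCA (an alternative added after seeing the data) was 25.7%, 17.8%, 30.0% and 34.4%. In the main setting 5.71% of shared regions had it, and the share of shared regions was not computed in the 4 settings. The intergenic share was 34.0%, 39.6%, 32.0% and 34.4%, and the promoter share outside the main range was 20.7% with stricter WSB lists, 19.8% with equal numbers and 20.4% with strain lists. Merging peaks up to 1 kb apart gave 16.02% promoter, 40.6% intergenic and a width of 217 bases. A promoter limit of 1 kb gave 7.32%, and protein-coding starts alone 10.3%. The deposited mean signal gave a median of 0.267, and scaling by the whole list 0.566. With a sample left out, the promoter share ran from 16.3% to 18.8%, the intergenic share from 36.6% to 45.8%, the signal from 0.104 to 0.148, the GC content from 42.0% to 44.7% and the AP-1 share from 14.4% to 24.2%, where the lowest AP-1 shares came with a single WSB sample. The difference in promoter share from the other strains kept its sign under every alternative run. For shared regions, the fit over regions called in at least 12 samples called 734 higher, no centring called 213 lower, and 352 called higher lay within 50 kb of a WSB-only region. With a sample left out, calls higher ran from 42 to 2449, calls lower from 225 to 2964 and higher calls within 10 kb from 4 to 187. Calls higher fell to 764 without the CAST female and 783 without the NOD female, and rose to 2449 and 2209 without the NZO female or male. Without the NZO female or male, calls lower were 2897 and 2964, and without the WSB female or male 233 and 225. Higher calls within 10 kb were 62 without the CAST female, 187 and 165 without an NZO sample, and 4 and 5 without a WSB sample. The causes were not tested. Of the 10 strongest regions, 7 were among the 10 strongest by the mean signal and 10 by the whole-list scaling. Depth limits all of this, since the peak lists do not tell a closed region from an open one that fell below the threshold.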
